A study of Mus musculus with 8 samples.

Results

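The genes Pecam1, Cdh5, Cd34, Plvap, Vcam1, Icam1, Kdr, Flt1, Tek and Eng, 10 markers and receptors of the vascular endothelium, were followed through 8 liver transcriptomes. They were chosen by name as a group of known function. The rule used no measured value, but the choice was made with earlier results of these data known. All 10 were found among 56953 gene identifiers and passed the filter on low counts. The livers came from adult male mice kept for 8 weeks on CDHFD, a choline-deficient high-fat diet that leads to fatty, inflamed and scarred liver, and no group on another diet was analysed here. The 4 control livers were of WT genotype, and the 4 HSC-PCK1-KO (knockout) livers lacked PCK1, an enzyme of glucose synthesis, in stellate cells, which lie beside the sinusoids and can turn into matrix-producing cells. The sources used here do not name the promoter that drove the deletion. The study's title ties this loss to fibrosis, and the comparison described here asks whether transcripts of the vessel wall differed with it. Only polyadenylated RNA of whole liver was measured, so that fewer endothelial cells and less RNA per endothelial cell cannot be told apart.

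The liver sinusoid is lined by endothelial cells whose pores lack a diaphragm and which rest on no continuous basement membrane. In chronic liver injury these cells can lose their pores and take on features of ordinary capillaries, a change called capillarization, for which CD34 and the diaphragm protein PLVAP are common markers. VCAM1 and ICAM1 are the adhesion molecules that hold leukocytes at the vessel wall, and macrophages, stellate cells and hepatocytes can make them as well. The remaining genes belong to endothelium of most vessels, as junction proteins (Pecam1, Cdh5) and as receptors for vascular growth factors (Kdr, Flt1, Tek, Eng).

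Library totals lay between 44695439 and 49477255 counts. The hepatocyte gene Alb stood at 68168 ± 8862 CPM in the control group and 66613 ± 7413 CPM in the knockout group (SD, n = 4 each), where CPM, the usual per-depth unit, is the count relative to the scaled total of its library. Pck1, the targeted gene, ranged from 551 to 2012 CPM in control livers and from 339 to 948 CPM in knockout livers. Hepatocytes make most Pck1 of the liver, so whole tissue is no check of the stellate cell deletion. Collagen and macrophage transcripts varied widely between livers of the same genotype. The summed CPM of Col1a1, Col1a2 and Col3a1 ran from 62.9 in control replicate 2 to 183 in control replicate 4, and from 50.8 in HSC-PCK1-KO replicate 1 to 111 in HSC-PCK1-KO replicate 3.

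Set side by side per length of exon, the vascular genes differed widely in level. Plvap, at 25.9 ± 2.62 CPM per kilobase, and Eng, at 16.8 ± 1.26 CPM per kilobase (SD, n = 8), were the highest, and in each case the lowest library lay above the highest library of the next gene. Cdh5 and Kdr followed at 5.84 ± 0.806 and 4.97 ± 0.58 CPM per kilobase, and their ranges overlapped. Icam1, Pecam1, Tek and Vcam1 formed an overlapping run from 3.19 to 1.66 CPM per kilobase. Flt1 stood at 0.594 ± 0.0476 CPM per kilobase. Cd34 was the scarcest at 0.268 ± 0.113 CPM per kilobase, its highest library at 0.494 lying just under the lowest Flt1 library at 0.50.

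**Figure D1:**
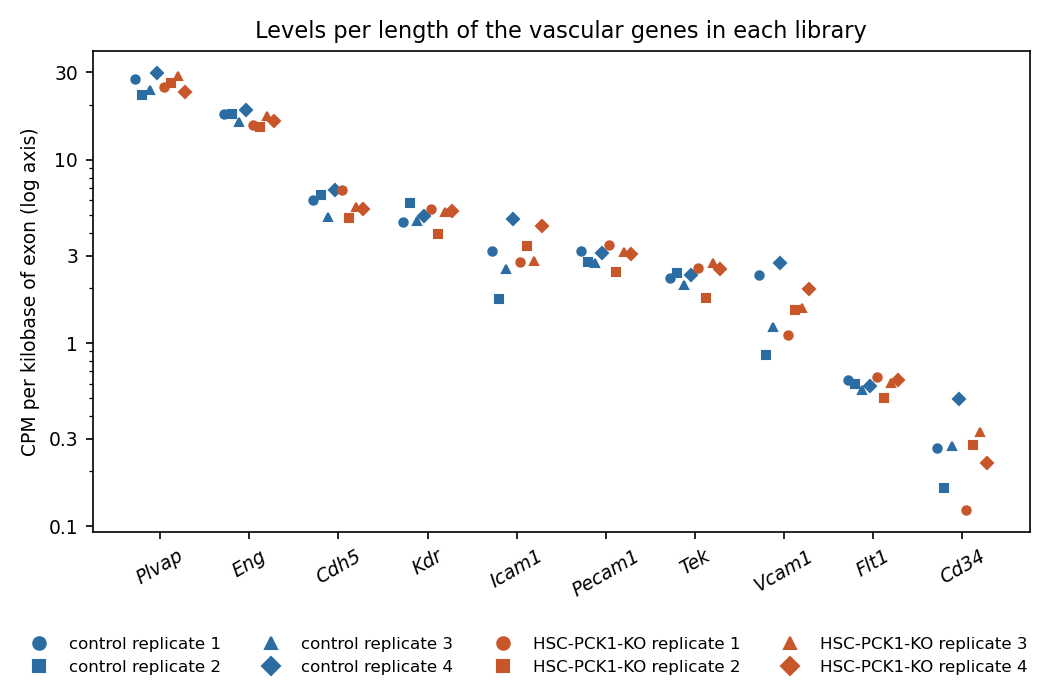
Levels of the 10 genes per kilobase of exon (log axis) in each of the 8 libraries, blue for control and orange for HSC-PCK1-KO, with marker shapes for replicates. Plvap and Eng stood above the others, Cd34 lowest, and Vcam1, Icam1 and Cd34 were the most scattered.

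Promoter windows from RefSeq were at hand for 6 of the 10 genes (Cd34, Icam1, Kdr, Flt1, Tek and Eng). The 5 printed here belong to genes that went with different transcripts from liver to liver, as described further on. Cd34 and Icam1 followed collagen or macrophage transcripts, and the receptors Kdr, Flt1 and Tek had their highest correlations elsewhere. Each is the 250 bases before the annotated start on build GRCm38.p6, read 5′ to 3′ on the gene's strand, at chr1:194938571-194938820 (+ strand) for Cd34, chr9:21015690-21015939 (+) for Icam1, chr5:75978456-75978705 (- strand) for Kdr, chr5:147726012-147726261 (-) for Flt1 and chr4:94739039-94739288 (+) for Tek. Capitals mark matches, on either strand, to the ETS core AGGAAG, the SP1 motif GGGCGG and the TATA motif TATAAA.
Cd34: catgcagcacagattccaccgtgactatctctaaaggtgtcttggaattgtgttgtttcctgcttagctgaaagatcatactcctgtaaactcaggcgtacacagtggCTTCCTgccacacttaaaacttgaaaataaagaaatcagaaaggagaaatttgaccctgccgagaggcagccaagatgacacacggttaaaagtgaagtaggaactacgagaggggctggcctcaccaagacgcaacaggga
Icam1: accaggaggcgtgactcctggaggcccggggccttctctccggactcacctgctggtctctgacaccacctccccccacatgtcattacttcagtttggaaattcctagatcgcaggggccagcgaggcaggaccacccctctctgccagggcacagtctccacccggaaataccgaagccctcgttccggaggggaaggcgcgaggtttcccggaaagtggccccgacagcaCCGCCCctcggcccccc
Kdr: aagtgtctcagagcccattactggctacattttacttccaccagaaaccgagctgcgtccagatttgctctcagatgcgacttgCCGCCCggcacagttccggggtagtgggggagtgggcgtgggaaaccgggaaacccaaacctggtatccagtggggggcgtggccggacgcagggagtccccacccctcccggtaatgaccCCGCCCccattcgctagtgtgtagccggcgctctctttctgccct
Flt1: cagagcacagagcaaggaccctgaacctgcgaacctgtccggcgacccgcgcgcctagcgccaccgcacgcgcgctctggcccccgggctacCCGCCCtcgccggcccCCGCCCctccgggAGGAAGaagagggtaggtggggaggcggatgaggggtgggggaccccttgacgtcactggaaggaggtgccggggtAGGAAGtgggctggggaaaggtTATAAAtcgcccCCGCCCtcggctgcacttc
Tek: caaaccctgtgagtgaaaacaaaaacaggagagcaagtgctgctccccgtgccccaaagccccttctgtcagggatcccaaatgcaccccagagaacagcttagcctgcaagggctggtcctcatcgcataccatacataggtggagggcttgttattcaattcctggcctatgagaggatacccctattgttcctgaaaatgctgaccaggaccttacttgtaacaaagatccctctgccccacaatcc
The Cd34 window held 1 short ETS motif, the Kdr window 2 SP1 motifs, and the Flt1 window 2 short ETS motifs, 3 SP1 motifs and 1 TATA motif. In the 300-base window, which runs 50 bases past the start, Icam1 had 2 SP1 motifs and 1 TATA motif, and Eng had 2 short ETS motifs. None of these motifs had a match in the Tek window. Of all 32851 RefSeq promoter windows of that length, 35.4% held the short ETS motif, 35.7% the SP1 motif and 13.6% the TATA motif, so that these are common strings. The longer ETS motif CCGGAAGT (3.89% of windows) had no match in the 6 windows. The same held for a stricter and a looser NF-kB motif (0.411% and 1.47% of windows), the looser of which takes in the stricter. Both fix most of their bases, so NF-kB sites of other spelling, in the Icam1 window or elsewhere, were not sought. The lack of a match thus does not show that a window is free of such sites.

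None of the 10 vascular genes differed between HSC-PCK1-KO and control livers beyond the spread between libraries. In edgeR's quasi-likelihood test and Benjamini-Hochberg adjustment across the 15669 genes that entered it, 0 of the 10 passed an adjusted p of 0.05, each with an adjusted p of 0.9998, against 0.0% of all genes. None reached an unadjusted p of 0.05, against 2.36% of all genes, and the 2 groups overlapped in all 10, against 1.53% of all genes without overlap. Of the 10, 6 were lower and 4 higher in knockout livers. Their median log2 fold change (knockout minus control) was -0.0081, beside -0.0055 over all genes. For 8 of the 10 the 95% interval excluded a 2-fold difference in either direction, beside 13590 of all 15669 genes. For 7 it excluded a 1.5-fold difference, beside 10461 of all 15669 genes. Cd34 and Vcam1 allowed more than 2-fold lower levels.

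**Figure D2:**
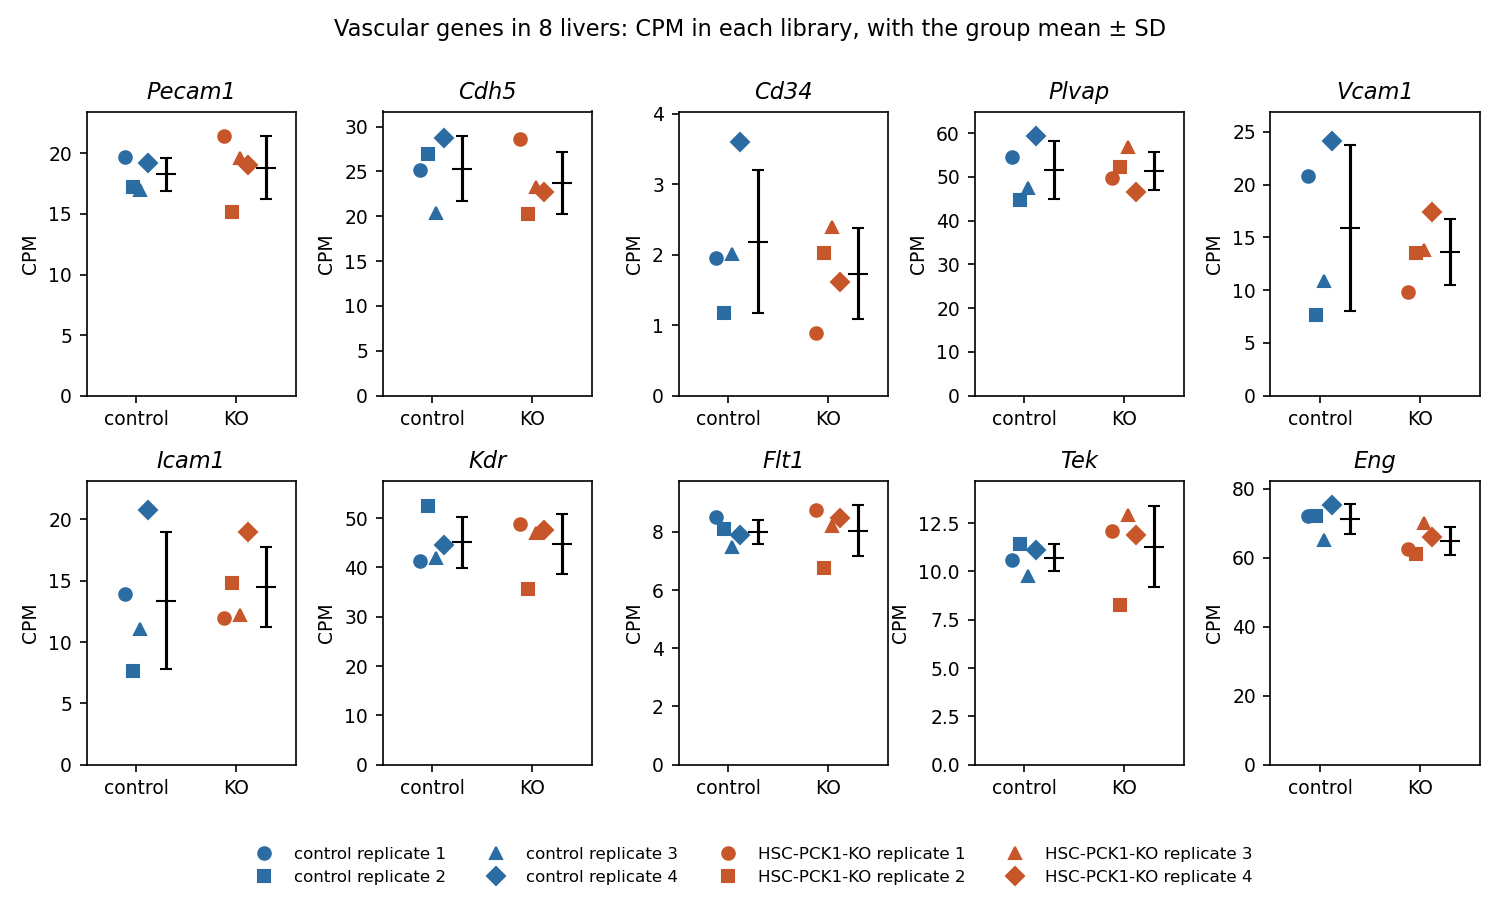
CPM of each gene (axis from 0) in the 4 control and 4 HSC-PCK1-KO (KO) libraries, with the mean ± SD of each group in black. The groups overlapped in all 10 genes, and control replicate 4 was the highest library for Cd34, Plvap, Vcam1, Icam1, Cdh5 and Eng.

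The junction proteins did not differ between genotypes beyond their spread. Cdh5, which encodes VE-cadherin, the adhesion protein of endothelial junctions, had 25.2, 27.0, 20.4 and 28.7 CPM in control replicates 1 to 4. In HSC-PCK1-KO replicates 1 to 4 it had 28.6, 20.3, 23.3 and 22.7 CPM. The highest library of either group was thus nearly equal, as was the lowest, and the log2 fold change was -0.094 (SE 0.13, 95% interval -0.37 to 0.19). Pecam1, which encodes CD31 and is also made by platelets and leukocytes, had 19.7, 17.2, 17.0 and 19.2 CPM in control and 21.4, 15.2, 19.6 and 19.0 CPM in knockout livers. Both the highest and the lowest Pecam1 library were of the HSC-PCK1-KO group, and the log2 fold change was 0.04 (SE 0.11, 95% interval -0.19 to 0.27).

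The markers of capillarization differed in how widely they spread between libraries, and neither differed by genotype beyond that spread. Plvap, which encodes the protein of the diaphragms that span capillary pores, had 54.6, 44.7, 47.5 and 59.4 CPM in control livers. It had 49.8, 52.2, 56.9 and 46.6 CPM in knockout livers, all of them inside the control range. Its log2 fold change of -0.0043 had a 95% interval of -0.23 to 0.22, or 0.855-fold to 1.16-fold. Cd34, a sialomucin of capillary endothelium that fibroblasts and mesothelial cells can also carry, had 1.95, 1.18, 2.01 and 3.60 CPM in control and 0.894, 2.03, 2.39 and 1.61 CPM in knockout livers. These rest on 40 to 188 counts per library, the fewest of the 10 genes. Control replicate 4 stood highest and HSC-PCK1-KO replicate 1 lowest, a 4.03-fold span, and the other 6 libraries were mixed between the genotypes. The log2 fold change of Cd34 was -0.34 (SE 0.37, 95% interval -1.16 to 0.49), and it was 0.015 without control replicate 4.

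Leukocyte adhesion molecules spread widely within each genotype. Vcam1, the counter-receptor of integrins with the Itga4 chain, had 20.8, 7.66, 10.9 and 24.1 CPM in control livers. In HSC-PCK1-KO livers it had 9.78, 13.5, 13.8 and 17.4 CPM, and every one of these lay between the lowest and highest control. Its log2 fold change was -0.22 (SE 0.37, 95% interval -1.07 to 0.63), -0.45 without control replicate 2 and 0.054 without control replicate 4. Icam1, the counter-receptor of integrins with the Itgb2 chain, had 13.9, 7.62, 11.1 and 20.8 CPM in control and 12, 14.8, 12.2 and 19.0 CPM in knockout livers. Here too the control group held both extremes. The log2 fold change of Icam1 was 0.12 (SE 0.29, 95% interval -0.55 to 0.79), 0.42 when control replicate 4 was left out, -0.072 when control replicate 2 was, and -0.038 when HSC-PCK1-KO replicate 4 was.

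The growth factor receptors Kdr, Flt1 and Tek shared their lowest library, HSC-PCK1-KO replicate 2. It was also the lowest for Eng, Pecam1 and Cdh5, and for the summed sinusoidal endothelial genes. Kdr, which encodes VEGFR2, the main signalling receptor for VEGF-A, had 41.3, 52.5, 41.9 and 44.6 CPM in control and 48.7, 35.6, 47.0 and 47.5 CPM in knockout livers. HSC-PCK1-KO replicate 2 stood below all others, and the log2 fold change was -0.012 (SE 0.11), or 0.083 without that library. Flt1, which encodes VEGFR1, a receptor that also traps VEGF-A, had 8.50, 8.09, 7.50 and 7.89 CPM in control and 8.76, 6.76, 8.19 and 8.48 CPM in knockout livers. Its log2 fold change was 0.0083 (SE 0.10), and again HSC-PCK1-KO replicate 2 was the lowest library. Tek, which encodes the angiopoietin receptor Tie2, had 10.6, 11.4, 9.76 and 11.1 CPM in control and 12.1, 8.25, 12.9 and 11.9 CPM in knockout livers. HSC-PCK1-KO replicate 2 was lowest and the other 3 libraries of that group were above every control, with a log2 fold change of 0.075 (SE 0.13), or 0.20 without HSC-PCK1-KO replicate 2.

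Eng had the smallest p of the 10 genes. It encodes endoglin, the co-receptor through which endothelial cells read BMP9 and TGF-beta. The 4 controls had 72.2, 72.2, 65.1 and 75.3 CPM, and the 4 knockouts 62.5, 61.0, 69.9 and 65.9 CPM. The lowest control lay within the HSC-PCK1-KO range and the highest HSC-PCK1-KO library within the control range. The group levels were 71.2 ± 4.32 and 64.8 ± 3.95 CPM (SD, n = 4 each), a log2 fold change of -0.13 (SE 0.072, 95% interval -0.29 to 0.024), with an unadjusted p of 0.0887 and an adjusted p of 0.9998 in edgeR.

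**Figure D3:**
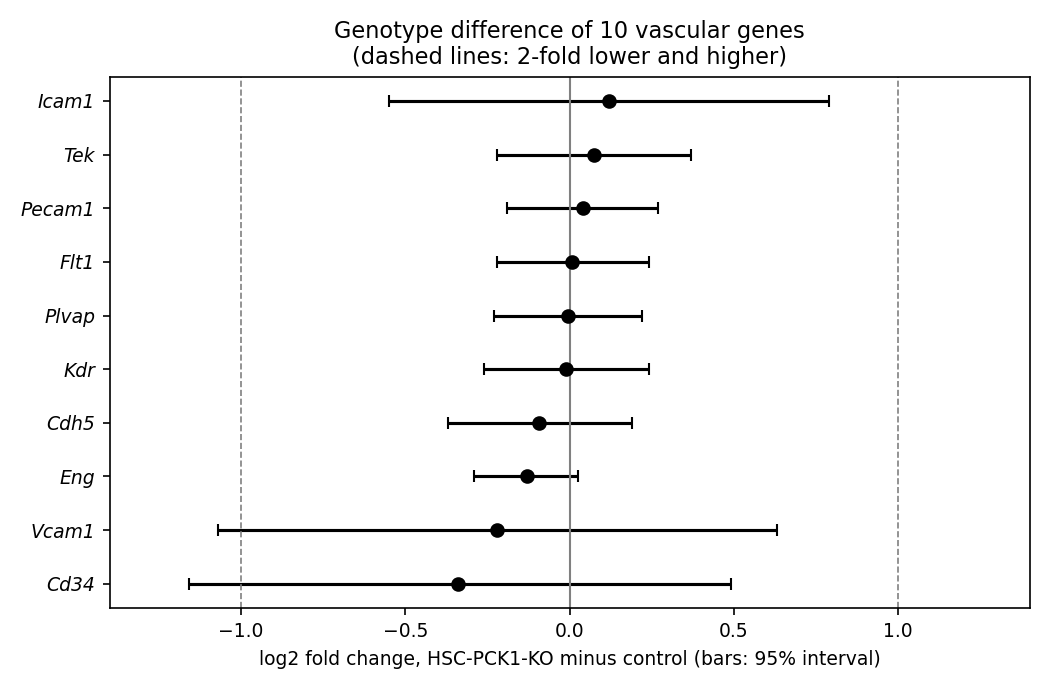
Log2 fold change of each gene, HSC-PCK1-KO minus control, with its 95% interval from edgeR; dashed lines mark 2-fold. All 10 intervals included 0, and those of Cd34 and Vcam1 crossed the line for 2-fold lower.

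To compare the genes relative to an endothelial junction transcript, each was set against Cdh5 in the same library. Other cell types can make Vcam1, Icam1, Cd34 and Pecam1, so their ratios do not measure the makeup of the endothelium alone. None of the 10 log2 ratios tested, 9 to Cdh5 and that of Kdr to Flt1, differed between genotypes by an exact two-sided permutation test (adjusted p from 0.898 to 1.0 over the 10 ratios, where 4 against 4 allows no raw p under 0.0286). Tek to Cdh5 had the smallest raw p of 0.286 (exact permutation), at -1.23 ± 0.13 in control and -1.08 ± 0.22 in knockout livers (SD, n = 4). Plvap to Cdh5, a ratio of the pore diaphragm to junction transcripts, was 1.03 ± 0.21 and 1.12 ± 0.25, and Cd34 to Cdh5 was -3.61 ± 0.64 and -3.82 ± 0.78. Of the 2 VEGF receptors, Kdr exceeded Flt1 by 2.48 ± 0.17 in control and 2.46 ± 0.053 in knockout livers on the log2 CPM scale, which is not corrected for length. Both the lowest and the highest library of that ratio, at 2.27 and 2.69, were control.

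None of the partners of these receptors and adhesion molecules passed the test. Of the VEGF ligands and co-receptors 7 of 8 were tested and 0 passed. Vegfa, the ligand of Kdr and Flt1, stood at 150.3 ± 15.2 CPM in the control group against 131 ± 12.4 CPM in the knockout group (SD, n = 4), with a log2 fold change of -0.19 (SE 0.095). Vegfd and Vegfc, ligands of the lymphatic VEGF receptor Flt4, had log2 fold changes of 0.27 and 0.18. Of the angiopoietins and Tie partners 5 of 6 were tested and 0 passed. Angpt2, a ligand that can block Tie2, stood at 0.992 ± 0.0823 and 0.805 ± 0.153 CPM, and Tie1, the companion receptor of Tek, at 14.4 ± 1.01 and 15.4 ± 1.30 CPM. Svep1, a matrix protein that binds Tie1, had a log2 fold change of -0.59 (SE 0.34). All 13 endoglin partners and BMP signalling genes were tested and 0 passed, the median log2 fold change being 0.033. Gdf2, which encodes BMP9, stood at 18.7 ± 2.03 and 17.3 ± 0.957 CPM, Id1, a target of that signal, at 4.39 ± 0.94 and 6.04 ± 3.25 CPM, and Smad4 had a log2 fold change of 0.058.

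Among endothelial junction genes 0 of 13 passed. Jup, which encodes plakoglobin and is abundant in hepatocytes too, had an unadjusted p of 0.0331 in edgeR, at 51.9 ± 3.41 CPM in the control group against 45.9 ± 2.76 CPM in the knockout group (SD, n = 4), with an adjusted p of 0.9998. Cldn5, the claudin of endothelial tight junctions, stood at 5.60 ± 0.713 and 4.86 ± 1.06 CPM, and Ctnnd1, which encodes the catenin that holds VE-cadherin at the surface, had a log2 fold change of 0.11. Of the selectins, the remaining ICAM and VCAM family genes and their integrin ligands, 11 of 12 were tested and 0 passed, 8 being lower in HSC-PCK1-KO, with a median of -0.16. Selp, which encodes P-selectin of platelets and endothelium, and Itgal, an integrin chain that binds ICAM1, had log2 fold changes of -0.21 and -0.22.

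Genes of continuous and large-vessel endothelium were split evenly, 16 higher and 14 lower of 30 tested, 0 of them passing, and the median log2 fold change was 0.0031. Esm1, which encodes a proteoglycan of sprouting tip cells, had the smallest p (unadjusted 0.0218, edgeR's adjusted p of 0.9998), at 2.25, 0.66, 1.16 and 1.86 CPM in control and 0.424, 0.704, 0.706 and 1.04 CPM in knockout livers. The groups overlapped through control replicate 2. Lama4, a laminin chain of vascular basement membrane, stood at 5.03 ± 0.519 and 4.27 ± 0.289 CPM and was the 1 gene of 30 in this list whose groups did not overlap, against 1.53% of all genes. Ednrb, an endothelin receptor, had a log2 fold change of 0.18. Of the sinusoidal endothelial genes all 16 were tested, 0 passed, and 10 were higher in HSC-PCK1-KO, with a median of 0.049. Clec4g, a lectin of these cells, stood at 42.1 ± 3.04 and 48.1 ± 6.28 CPM, and Wnt2 and Wnt9b, zonation signals made by central endothelium, had log2 fold changes of 0.34 and 0.60. Wnt9b had an unadjusted p of 0.0396 in edgeR (95% interval 0.035 to 1.16, adjusted p of 0.9998), and HSC-PCK1-KO replicate 2 was its lowest library, so that the groups overlapped.

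From liver to liver, irrespective of genotype, the vascular genes parted into steady and variable ones. Over the 8 libraries the coefficient of variation was 42.1% for Cd34, 38.3% for Vcam1 and 30.6% for Icam1, and from 7.53% for Eng to 13.8% for Cdh5 in the other 7, beside a median of 12.8% over all genes tested. Of all genes tested, 92.3% varied less than Cd34, 90.1% less than Vcam1 and 83.2% less than Icam1. Counting error alone gives 10.2% for Cd34, 3.73% for Vcam1, 3.85% for Icam1 and from 1.75% for Eng to 5.11% for Flt1 in the other 7, below the measured value for each of the 10.

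Relations were sought between each gene and 4 sums of marker genes over the 8 libraries, 40 relations in all, with exact two-sided permutation p-values. Of these, 3 passed an adjusted p of 0.05 by Pearson's r, and 1 by Spearman's rho. Icam1 rose with the summed CPM of 6 recruited macrophage genes (Trem2, Gpnmb, Cd9, Itgax, Ccr2 and Cd68), with r = 0.951 (exact permutation p = 4.96e-05, adjusted p = 0.00198). Spearman's rho of Icam1 was 1.0 (exact permutation p = 4.96e-05, the smallest that 8 libraries can give, adjusted p = 0.00198), so that the 8 libraries had the same order in both. Cd9 and Cd68 weighed most in this sum, with means of 24.3 and 17.8 CPM, beside 5.33 CPM for Gpnmb and less for Trem2, Itgax and Ccr2. Which of these genes carried the relation was not tested. Vcam1 rose with the same sum (r = 0.924, exact permutation p = 0.00134, adjusted p = 0.0212, and rho = 0.857, exact permutation p = 0.0107, adjusted p = 0.143). Cd34 rose with the collagen sum (r = 0.96, exact permutation p = 0.00159, adjusted p = 0.0212, and rho = 0.81, exact permutation p = 0.0218, adjusted p = 0.145).

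These relations leaned on the libraries at the ends but did not turn without them. Without control replicates 2 and 4, the libraries farthest from the median of the macrophage sum, r was 0.815 for Icam1 and 0.783 for Vcam1 over the remaining 6. Without control replicate 4 and HSC-PCK1-KO replicate 1, the farthest in collagen, r was 0.844 for Cd34. None of the 3 passed adjustment at that size (adjusted p of 0.111 for Icam1, 0.389 for Vcam1 and 0.395 for Cd34, exact permutation). With 6 libraries the smallest possible p is 0.00278, and a lone relation among 40 cannot adjust below 0.111, which is the value of Icam1. With each library centred on the mean of its genotype r was 0.949 for Icam1, 0.962 for Vcam1 and 0.957 for Cd34, each with an adjusted p of 0.139 by exact permutation within genotype. Within genotype the smallest possible p is 0.00347, and a lone relation among 40 cannot adjust below 0.139. Icam1 had the smallest possible p in both checks, which the shared order of all 8 libraries had fixed in advance. Neither these p-values nor its lost calls therefore speak to how stable its relation is. Without the end libraries the unadjusted p was 0.075 for Vcam1 and 0.0889 for Cd34 (exact permutation). These lie well above 0.00278, so that limit alone does not account for the loss of these calls. Centred on genotype the unadjusted p was 0.00694 for Vcam1 and 0.0104 for Cd34 (exact permutation within genotype).

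Other relations had a high r without passing, some of them with other sums. Vcam1 with the collagen sum had r = 0.856 and rho = 0.905 (exact permutation p of 0.00615 and 0.00456, adjusted p of 0.0615 and 0.0913). Plvap with that sum had r = 0.785 and rho = 0.81 (exact permutation p of 0.0202 and 0.0218, adjusted p of 0.0926 and 0.145). Without control replicate 4 and HSC-PCK1-KO replicate 1, r was 0.809 for Vcam1 and 0.906 for Plvap. Kdr and Tek had r of -0.457 and -0.11 with the macrophage sum, and their highest r with the sum of 16 sinusoidal endothelial genes, 0.876 and 0.873 (exact permutation p of 0.00818 and 0.0135, adjusted p of 0.0655 and 0.0903), with rho of 0.81 and 0.714 (exact permutation p of 0.0218 and 0.0576, adjusted p of 0.145 and 0.256). These r rested in part on control replicate 1 and HSC-PCK1-KO replicate 2, the libraries with the lowest sums, without which they were 0.522 and 0.657. Flt1, Pecam1 and Cdh5 had r of 0.75, 0.74 and 0.671 with the sinusoidal sum (exact permutation, adjusted p of 0.171, 0.155 and 0.183). Without the same 2 libraries r was higher, at 0.884, 0.842 and 0.766. Pecam1 and Cdh5 had r of 0.785 and 0.806 with the sum of 6 Kupffer cell genes (exact permutation p of 0.0184 and 0.0208, adjusted p of 0.0926 each) and rho of 0.643 and 0.762 (exact permutation p of 0.0962 and 0.0368, adjusted p of 0.35 and 0.21), and r was 0.426 and 0.627 without HSC-PCK1-KO replicates 1 and 2.

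**Figure D4:**
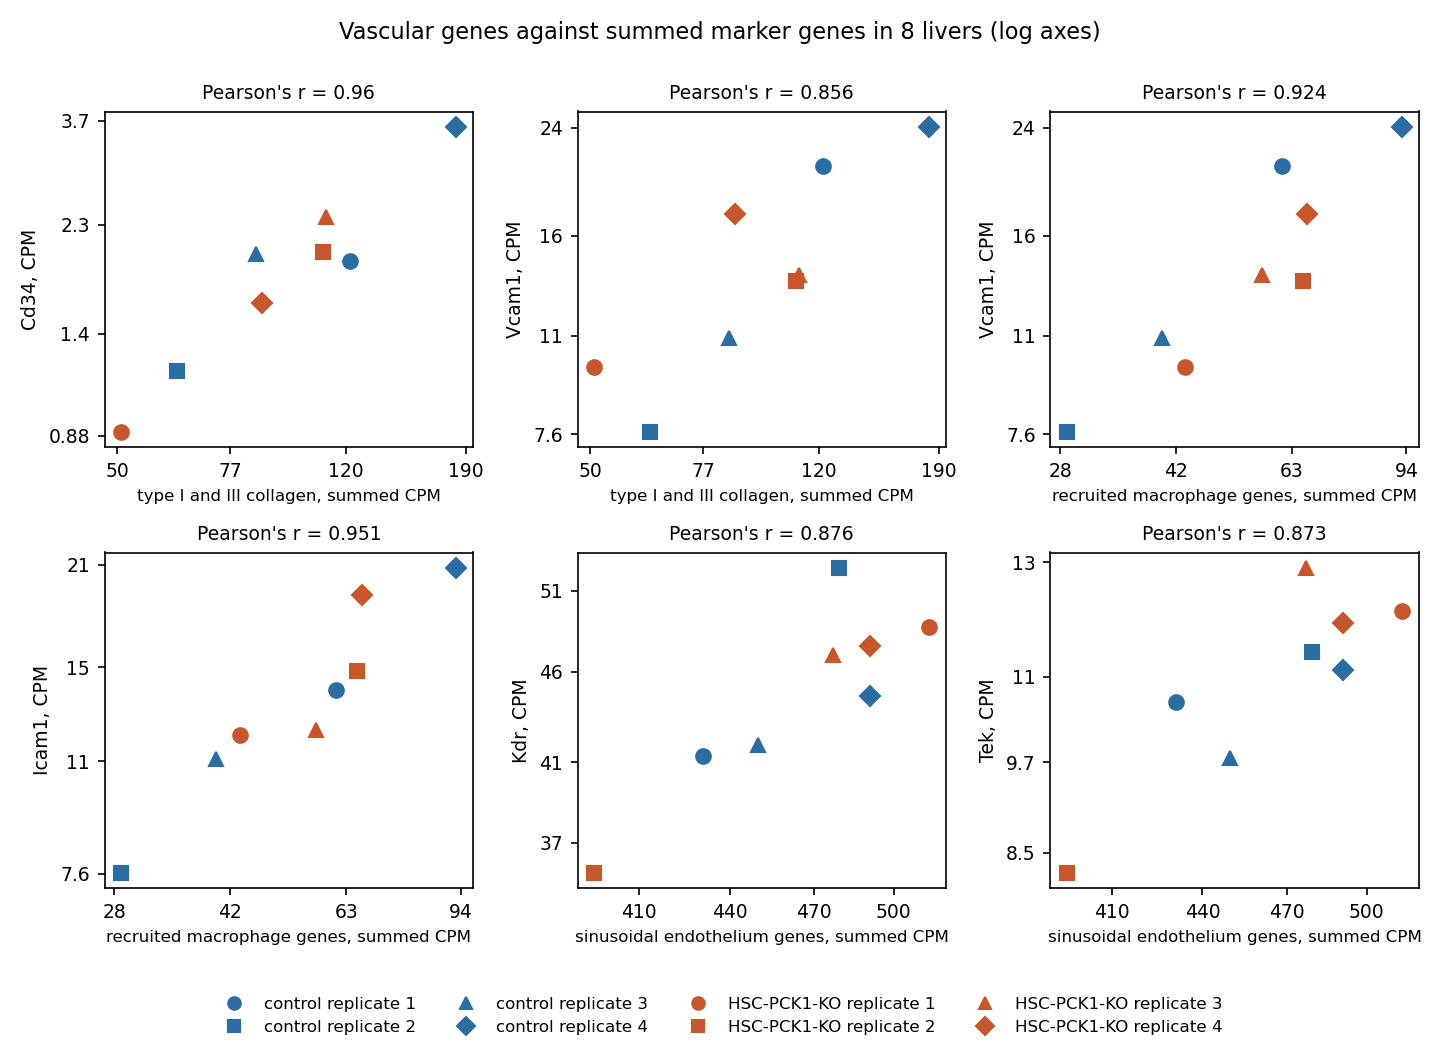
CPM of Cd34, Vcam1, Icam1, Kdr and Tek against summed CPM of marker genes in the 8 libraries (6 panels, log axes), blue for control and orange for HSC-PCK1-KO. Icam1 and the macrophage sum put the 8 livers in the same order, while the Kdr and Tek panels were stretched by HSC-PCK1-KO replicate 2 at the lower left.

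Because whole liver was sequenced, the level of cell type markers stands beside these values. The recruited macrophage sum ran from 28.7 to 92.6 CPM in control and from 43.4 to 66.5 CPM in knockout livers, with 0 of 6 members passing in edgeR between genotypes (0 at an unadjusted p under 0.05). Kupffer cell markers summed to 282 to 449 CPM and 239 to 465 CPM, with 0 of 6 passing. A list of portal fibroblast and mesothelial genes, cells that can carry Cd34, summed to 9.85 to 21.6 CPM in control and 6.75 to 11.8 CPM in knockout livers. None of its 7 tested genes passed in edgeR, and 6 were lower in HSC-PCK1-KO. At an unadjusted p under 0.05 there were 3 (2.36% of all genes), the mesothelial genes Upk3b, Msln and Lrrn4, with log2 fold changes of -1.79, -1.44 and -2.30. The groups did not overlap in Upk3b and Msln (1.53% of all genes), and Upk3b passed in DESeq2 (adjusted p of 0.00971). Stellate cell markers, from the cells that carry the deletion, summed to 299 to 326 CPM in control and 266 to 309 CPM in knockout livers. Of these, 0 of 9 passed and 6 were lower in HSC-PCK1-KO. Rgs5, a gene of pericytes, had an unadjusted p of 0.0355 and a log2 fold change of 0.25 in edgeR, and Colec11, a secreted lectin, had groups that did not overlap (log2 fold change -0.12). Markers of platelets and of B and T lymphocytes, cells that carry Pecam1, were low. Their sums ran from 4.12 to 5.82 and from 4.69 to 6.01 CPM in control livers. In the knockout group they ran from 4.42 to 5.24 and from 4.95 to 7.89 CPM, and 0 of 3 and 0 of 7 tested genes passed. No marker of these lists was at 0 counts in any library. The part of other cell types in the level of the vascular genes was not tested.

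Within the list, 45 pairs of genes were compared over the 8 libraries and none passed an adjusted p of 0.05 by r or by rho (exact permutation tests). The pair with the highest r was Pecam1 and Flt1 (r = 0.91, rho = 0.881, exact permutation p of 0.00417 and 0.00724, adjusted p of 0.131 and 0.241), and r was 0.654 without control replicate 3 and HSC-PCK1-KO replicate 2. Vcam1 and Icam1 had r = 0.875 and rho = 0.857 (exact permutation p of 0.0058 and 0.0107, adjusted p of 0.131 and 0.241), and r was 0.637 without control replicates 2 and 4. Kdr and Tek had r = 0.867 and rho = 0.762 (exact permutation p of 0.0121 and 0.0368, adjusted p of 0.182 and 0.414), and r was 0.881 without control replicate 2 and HSC-PCK1-KO replicate 2. Cd34 and Plvap had r = 0.729 and rho = 0.762 (exact permutation p of 0.0369 and 0.0368, adjusted p of 0.239 and 0.414). Without control replicate 4 and HSC-PCK1-KO replicate 1 their r was 0.83. The most negative r was that of Cd34 and Kdr, at -0.45, with rho at -0.595 (exact permutation p of 0.251 and 0.132, adjusted p of 0.62 and 0.496), and r was -0.599 without control replicate 4 and HSC-PCK1-KO replicate 1.

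**Figure D5:**
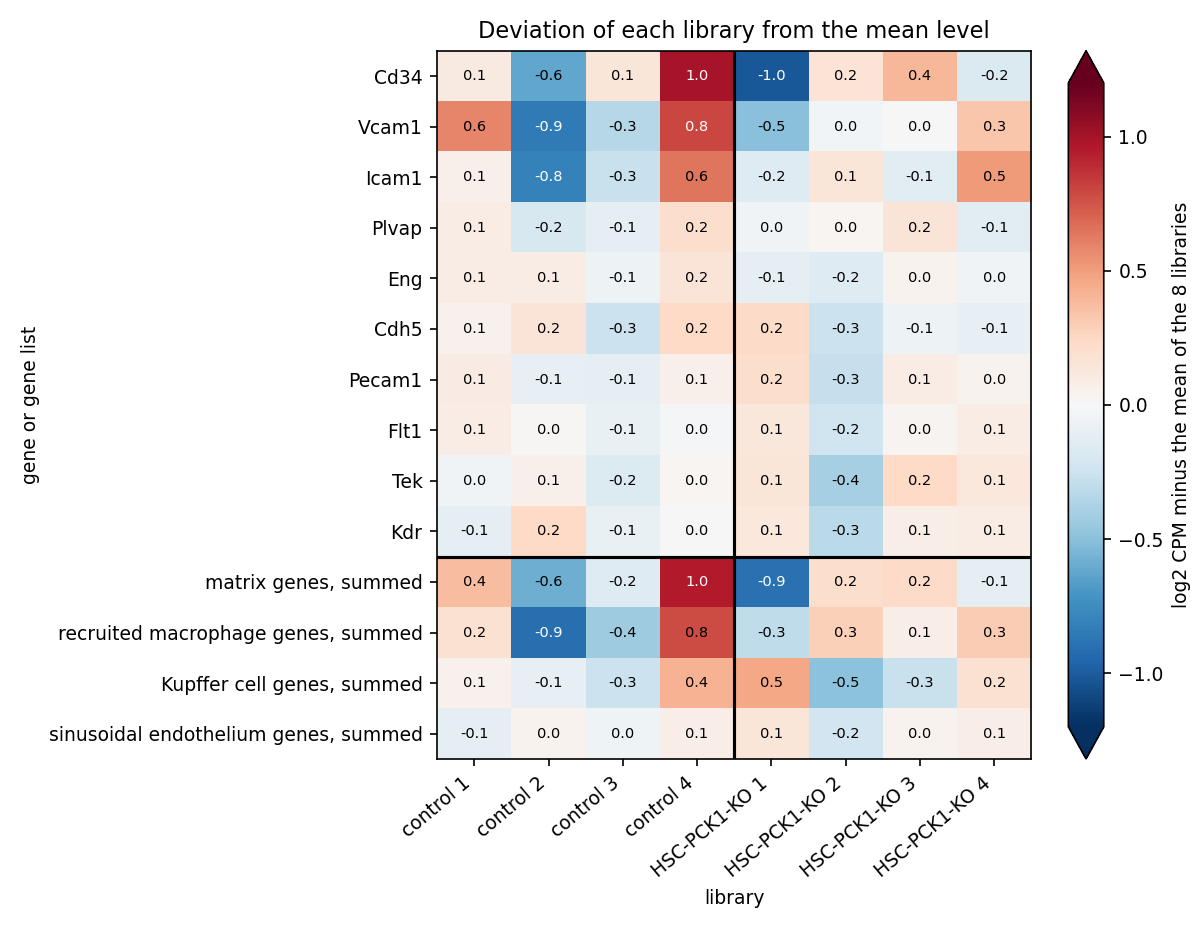
Log2 CPM of each gene, and of 4 sums of marker genes, minus its mean over the 8 libraries (red above, blue below). Cd34, Vcam1 and Icam1 carried the deepest colours, red in control replicate 4 and blue in control replicate 2 (Cd34 also in HSC-PCK1-KO replicate 1), as the matrix and recruited macrophage sums did.

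The genes whose profile over the 8 libraries was most like each member were sought among 9217 genes of at least 5 CPM, by Pearson's r of log2 CPM. For Flt1 and Tek they included Ptprb, which encodes the endothelial phosphatase VE-PTP, a partner of Tie2 and VE-cadherin (r = 0.919 and 0.902), and for Tek also Tspan7 (0.898). For Vcam1 they were Morc3 (0.985) and Ccdc80 (0.975), a secreted matrix protein. Nearest to Icam1 were Clcn5 (0.979) and Luzp1 (0.977), and to Cd34 Mfsd10 (0.98) and Ppp1r12c (0.971). Plvap was closest to Tmem43 (0.979) and Mcm2 (0.978), Cdh5 to Wdfy2 (0.94) and Ice2 (0.909), and Pecam1 to Acer2 (0.94) and Hpx (0.93). Kdr was nearest to Zfp955a (0.945) and Man2b1 (0.927), Eng to C1qtnf1 (0.959) and Pfkfb3 (0.945), and Flt1 also to Stk3 (0.921). With 9217 candidates and 8 libraries such values are a description of these libraries.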

How the data were processed

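Polyadenylated RNA of 8 livers was sequenced as strand-specific paired reads of 100 bases, per the labels' protocols. The authors deposited raw counts per gene, 1 file per library, without normalization. Per the submitters' processing notes the build was GRCm39 and R 4.3.2 was used. Aligner, counter, annotation and strand setting were not given in the sources used here. Symbols came by identifier from GENCODE M21 (GRCm38), which named 52029 of 56953 identifiers, as did exon lengths. In that annotation exons of Cd34, Vcam1, Icam1 and Eng overlap a gene on the opposite strand by 148, 61, 511 and 61 bases, where reads could be shared if strand was not used.

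Counts were fitted in R 4.3.3 with edgeR 4.0.16 (filterByExpr, which kept 15669 of 28811 genes with a count, TMM factors, robust quasi-likelihood test, genotype as the only term). A log2 CPM has a prior count of 2. Correlations (of log2 values) and ratios used exact permutation over libraries, with the two-sided p taken as the doubled smaller tail. That convention was set after the share of pairings farther from 0 had been seen. Calculations were tested on simulated data. The members and 15 other lists were chosen with earlier results of these data known. Besides the 10 members and Pck1, the 3 members of each list with the smallest p could be named, and the 2 genes most like each member; 1 gene under that rule is not reported here. Alternatives used DESeq2 1.42.0, limma 3.58.1, other scaling and filters, a replicate block and leaving out each library. The series' design calls the 4 samples of a group biological replicates, and each title has a number of its own in parentheses that the labels do not explain. Since none says outright that each library is 1 animal, p-values speak only of variation among these samples. Pairs within a group differed by a chi-square per degree of freedom of 44.4 to 168, so none was a copy.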

Additional observations from a re-analysis of the deposited data

Results flagged for a closer look

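In 2 of 48 groups of 4 libraries checked, the lowest value stood well apart from the remaining 3. About 2.4 such groups would arise by chance. Kdr in HSC-PCK1-KO replicate 2 stood at 35.6 CPM, while the other 3 libraries of that group had 47.0 to 48.7 CPM. The log2 ratio of Eng to Cdh5 in HSC-PCK1-KO replicate 1 was 1.13, while the others had 1.53 to 1.58.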

How the results depend on the processing

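Over 15 alternatives for each of the 10 genes, 150 in all, none passed an adjusted p of 0.05, and 19 turned the sign of a log2 fold change, those of Cd34, Vcam1 and Icam1, which are among the largest, included. With limma-voom the values of Pecam1, Plvap and Flt1 were -0.0031, 0.018 and -0.026, and with the replicate block Plvap was at 0.0011. Cdh5, Tek and Eng kept their sign in all 15 alternatives, at -0.2 to -0.026, 0.0047 to 0.2 and -0.17 to -0.1 when each library was left out. For the others, leaving out each library gave -0.029 to 0.13 for Pecam1, -0.54 to 0.015 for Cd34, -0.066 to 0.073 for Plvap, -0.45 to 0.054 for Vcam1, -0.072 to 0.42 for Icam1, -0.056 to 0.083 for Kdr and -0.036 to 0.083 for Flt1. The ratios of Pecam1, Icam1, Kdr, Flt1 and Tek to Cdh5 kept their sign. The other ratios to Cdh5 ran from -0.50 to 0.16 for Cd34, -0.0052 to 0.20 for Plvap, -0.34 to 0.24 for Vcam1 and -0.084 to 0.069 for Eng, and that of Kdr to Flt1 from -0.089 to 0.05. The cause was not tested. Over all genes 0 passed in edgeR (370 at an unadjusted p under 0.05), 6 in DESeq2 (366 unadjusted) and 0 to 1 when a library was left out, the 1 being Gm15920, named after its value was seen, without control replicate 1. Of the 40 correlations 3 passed, 0 without the 2 farthest libraries (where a lone relation cannot adjust below 0.111), and, in alternatives chosen after seeing the data, 0 with values centred on genotype (not below 0.139) and 6 with p as the share of pairings at least as far from 0. Same-numbered libraries deviated with correlations of -0.329 to 0.0576, which gave no sign of pairing but cannot exclude it. With the replicate block 0 genes passed, as without it. Cd34 has the fewest counts, 40 to 188 per library, yet its counting error of 10.2% is below its variation over the libraries of 42.1%. What limited detection was not tested.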
